A study of Mus musculus with 24 samples.

Results

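Bmp8b and 8 other genes of bone morphogenetic protein (BMP) signalling and of secretion by brown fat were followed in the brown adipose tissue (BAT) of cold-exposed mice. The 9 genes were Bmp8b, Bmp4 and Bmp6 (BMP ligands), Bmpr1a and Acvr1c (receptors), and Nrg4, Fgf21, Cxcl14 and Epdr1 (other secreted factors). They were selected on their symbols, and the set was built around Bmp8b, which was chosen by its higher count in the cold and its lower count under the knockout label in these same libraries. Of the 9, 5 were found among the 12615 genes of the count table (Bmp8b, Bmp4, Bmpr1a, Acvr1c and Nrg4), and all 5 passed the filter on low counts. Fgf21, Cxcl14, Epdr1 and Bmp6 were not analysed here. Bmp8b passed that filter through the Cre- mice at 8°C, in which its counts were high, and was removed by it in fits without that group.

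BMPs are secreted dimers that bind a pair of receptor kinases, a type II receptor that phosphorylates a type I receptor such as BMPR1A. The type I receptor then phosphorylates SMAD1, SMAD5 and SMAD9, which enter the nucleus with SMAD4 and switch on targets such as Id1. ACVR1C, also named ALK7, is a type I receptor of the activin branch, which uses SMAD2 and SMAD3. BMP8B is made by brown adipocytes and is known for raising their response to adrenergic stimulation, BMP4 promotes commitment of adipocyte precursors, and NRG4 is an epidermal growth factor-like ligand of ERBB4 that brown fat releases.

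Every mouse carried floxed alleles of TBLR1 and TBL1 (genes Tbl1xr1 and Tbl1x), subunits of a nuclear corepressor complex, and was given tamoxifen, which the labels place at an age of 5 with years as the unit and the methods place in weeks. Temperature treatment began 3 weeks after the last injection. Mice labelled BATdKO were positive for Ucp1CreERT2, a tamoxifen-activated recombinase under the promoter of the brown adipocyte gene Ucp1, and Cre- mice were negative for it. The strain was C57BL6/N in the methods, and the labels give females whereas a legend of the study gives males. After rearing at 22°C, mice went directly to 30°C for 4 days, or were taken through 1 day each at 18°C, 16°C and 12°C to 6 days at 8°C. The study's text gives a shorter stay in the cold. There were 6 mice in each of the 4 groups (Cre- or BATdKO, at 30°C or 8°C), here called m1 to m6. The recombinase acts in cells that use the Ucp1 promoter, so endothelial, immune and stromal cells of the tissue keep both genes. In such bulk tissue, fewer cells of a type and less RNA per cell cannot be told apart.

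Total counts ranged from 699703 (Cre- 30°C, m4) to 11527643, and no 2 libraries of a group agreed within counting error (chi-square per degree of freedom 2.61 to 63.3). Tbl1xr1 was higher, not lower, under the BATdKO label at 8°C, at 39.9 ± 4.01 against 20.9 ± 2.24 CPM (counts scaled to library size, SD, n = 6). Tbl1x was higher under that label too, with overlap between the groups. It was at 53.8 ± 6.755 against 40.7 ± 1.88 CPM at 8°C and 53.4 ± 7.135 against 41.0 ± 7.75 CPM at 30°C. For this reason groups are referred to by their labels throughout. At 30°C, m6 of each genotype went against its own group. Tbl1xr1 was at 38.6 CPM in the library labelled Cre- and at 17.0 CPM in the one labelled BATdKO. Tbl1x was at 53.5 and 39.65 CPM in them, the highest and the lowest of their groups. Results for genotype at 30°C are therefore also given without both libraries. All 13 brown adipocyte markers were present, with a summed level of 1030 to 4011 CPM. All 9 hepatocyte markers were present too, at 30120 to 47600 CPM in every group, and the 12 skeletal muscle markers ranged from 0.923 to 9440 CPM. The part of these transcripts in the results was not tested.

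Bmp8b (ENSMUSG00000002384) lies at chr4:123105165-123132099 on the plus strand of GRCm38, and Bmp4 (ENSMUSG00000021835) at chr14:46383520-46390669 on the minus strand. Their promoters are shown because both encode BMP ligands, of which 1 differed strongly between the groups and the other did not. Each is the window of 250 bases before the start of the gene in RefSeq (GRCm38.p6), written 5′ to 3′ on the strand of the gene, with every CG dinucleotide in capitals. The Bmp8b window is chr4:123104911-123105160 and the Bmp4 window chr14:46390670-46390919.
Bmp8b: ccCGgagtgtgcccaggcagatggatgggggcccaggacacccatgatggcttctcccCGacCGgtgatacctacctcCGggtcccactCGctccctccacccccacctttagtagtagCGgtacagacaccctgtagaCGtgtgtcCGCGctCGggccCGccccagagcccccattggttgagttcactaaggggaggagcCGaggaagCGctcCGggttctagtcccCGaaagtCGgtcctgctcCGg
Bmp4: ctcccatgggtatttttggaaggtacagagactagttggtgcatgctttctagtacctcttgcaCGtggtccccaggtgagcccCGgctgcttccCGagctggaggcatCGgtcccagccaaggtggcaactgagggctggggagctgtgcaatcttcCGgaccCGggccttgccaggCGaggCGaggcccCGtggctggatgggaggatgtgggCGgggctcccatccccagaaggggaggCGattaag
The Bmp8b window holds 17 CG dinucleotides and 65.2% G or C, and 23.7% of the 32544 windows of all genes hold as many CG or more. That of Bmp4 holds 11 at 63.2% G or C, which 35.8% of windows reach. The median window holds 6. On either strand, neither window, nor any of the 6 windows of the 5 genes, holds the cAMP response element TGACGTCA, its first letters TGACG (which are part of it), or a direct repeat 1 of nuclear receptors. Over all windows these occur in 1.56%, 17.9% and 0.0338%. These letters are simply absent from these windows, and nothing follows from it about any factor.

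Bmp8b had the widest spread of levels of the 5 genes over the 4 groups. In Cre- mice at 30°C its lowest, median and highest level was 0.206, 0.906 and 2.09 CPM, from 1 to 20 counts per library. In Cre- mice at 8°C the same 3 values were 8.85, 11.6 and 19.95 CPM, from 63 to 113 counts. Every Cre- mouse at 8°C was thus above every Cre- mouse at 30°C. Under the BATdKO label the levels were 0.169, 0.194 and 0.751 CPM at 30°C, from 1 to 5 counts, and 0.871, 2.40 and 4.52 CPM at 8°C, from 2 to 46 counts. The cold BATdKO mice were above all BATdKO mice at 30°C and below all Cre- mice at 8°C.

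**Figure D1:**
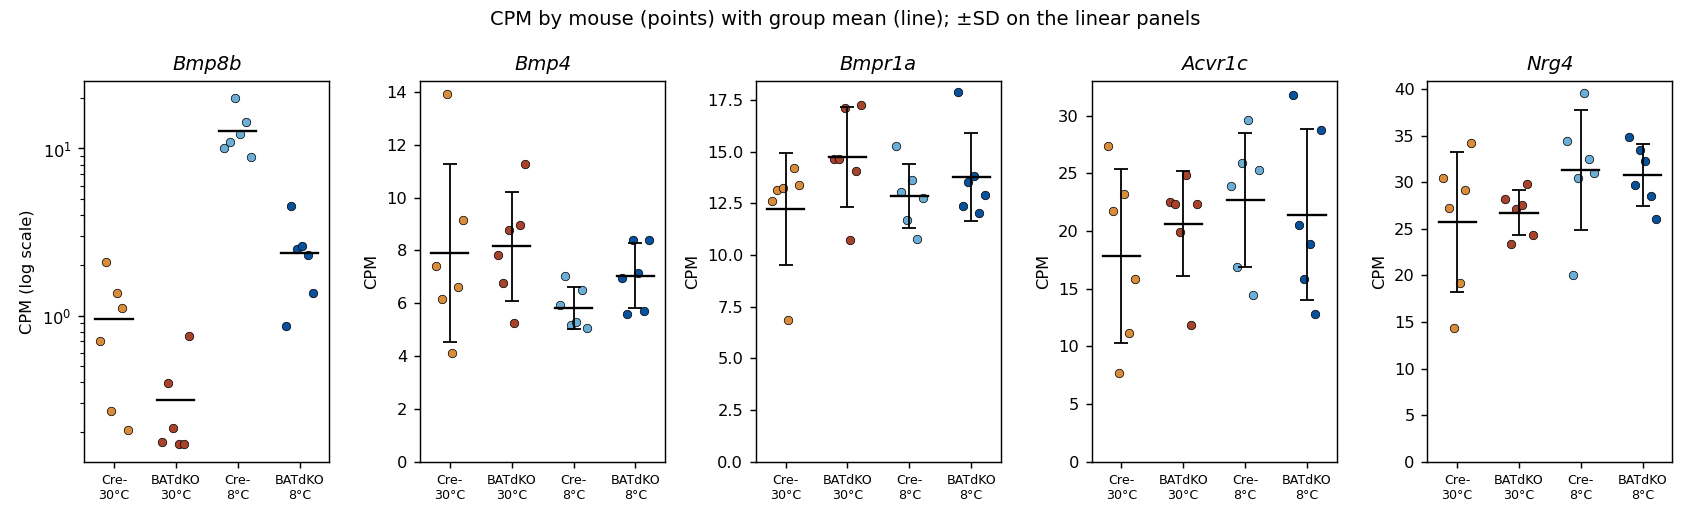
Level in CPM of Bmp8b (log axis), Bmp4, Bmpr1a, Acvr1c and Nrg4 (linear axes from 0) in each of the 24 mice, with 6 points per group, the group mean as a line and, on the linear panels, the SD as a bar. Bmp8b reaches 8.85 to 19.95 CPM in Cre- mice at 8°C and at most 4.52 CPM in any other mouse, whereas the groups of the other 4 genes overlap.

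The order of the group means was Cre- 8°C (12.8 ± 4.02 CPM), BATdKO 8°C (2.36 ± 1.26), Cre- 30°C (0.958 ± 0.717) and BATdKO 30°C (0.312 ± 0.232; SD, n = 6 each). Cre- 8°C was separate from BATdKO 8°C, whereas BATdKO 8°C overlapped Cre- 30°C, which overlapped BATdKO 30°C. Depth limits the lower levels: 3 Cre- and 4 BATdKO libraries at 30°C held 3 counts or fewer, as did 1 BATdKO library at 8°C, and the 1.37 CPM of Cre- m4 at 30°C rest on 1 count.

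Since Bmp8b was chosen by its levels in the cold and under the BATdKO label across the 4 groups, all its fold changes are a description without a test. The log2 fold change of Bmp8b from 30°C to 8°C in Cre- mice was 3.80 (SE 0.35), and the ratio of means was 13.3. Between the labels at 8°C the log2 fold change was -2.25 (SE 0.30), with a mean 5.40 times lower under BATdKO. The other measured genes are given as a description in both comparisons too. Over all 12485 tested genes, 9.15% passed an adjusted p of 0.1 for cold in Cre- mice and 1.82% for genotype at 8°C.

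In BATdKO mice the log2 fold change of Bmp8b from 30°C to 8°C was 3.01 (SE 0.50), and the ratio of means was 7.57. From the pooled 100 and 14 counts the ratio was 8.96, with an exact 95% interval of 5.10 to 17.0 that covers counting error only and not the spread between mice. Leaving out each library in turn gave a log2 fold change of 2.66 to 3.39, and leaving out both m6 libraries at 30°C gave 3.40. None of the other measured genes passed here, beside 7.07% of all tested genes, and nothing is read from this. In a fit of these 12 libraries alone, Bmp8b did not pass the filter on low counts and had no value.

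The gain of Bmp8b in the cold was 11.8 CPM in Cre- mice and 2.05 CPM in BATdKO mice, or 17.4% of the former. On the log2 scale the 2 cold effects differed by -0.80 (SE 0.77), and by -0.15 without both m6 libraries. This too is a description, and no call is given for the 5 genes. Over all tested genes, 0.0961% passed for this difference. The gain was thus smaller in CPM under the BATdKO label, while the log2 fold changes differed by little more than the standard error of their difference.

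Between the genotypes at 30°C the log2 fold change of Bmp8b was -1.46 (SE 0.59). Of 6 BATdKO mice 3 lay below all Cre- mice, on 1 or 2 counts each, where the lowest Cre- mouse (m6) had 2 counts. The pooled counts of 14 and 42 gave a level 2.85 times lower, with an exact 95% interval of 1.52 to 5.64, again for counting error only. In a fit of these 12 libraries alone Bmp8b was removed by the filter and had no value. None of the other measured genes passed with all libraries, beside 0% of all tested genes (edgeR). Of all tested genes, 1303 had an unadjusted p under 0.05, and DESeq2 called 90. Both m6 libraries bore on this result. The one labelled Cre- had 0.206 CPM of Bmp8b, the lowest of its group, and the one labelled BATdKO 0.751 CPM, the highest of its group. Without both, the means were 1.11 ± 0.688 and 0.224 ± 0.0961 CPM (SD, n = 5), and the log2 fold change of Bmp8b was -2.10, in a fit that called 500 genes.

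**Figure D2:**
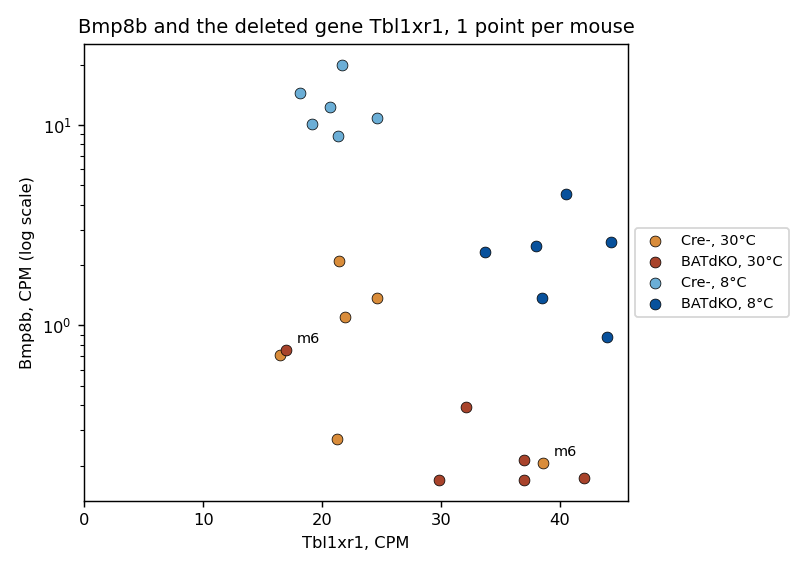
Bmp8b (CPM, log axis) against Tbl1xr1 (CPM, linear axis), 1 point per mouse, coloured by labelled genotype and temperature, with m6 of each group at 30°C marked. The m6 points stand with the group of the other label in Tbl1xr1, at 38.6 CPM (labelled Cre-) and 17.0 CPM (labelled BATdKO).

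The library labelled Cre- m6 also had the most Ucp1 of its group, 548 CPM against 28.9 to 133 CPM in the other 5, and that labelled BATdKO m6 the least of its own, 84.7 CPM. Ucp1, the uncoupling protein of brown adipocytes, was not set apart from the other markers by the rule and is named here after its values were seen. In the cold it reached 1539 ± 375 CPM in Cre- and 1685 ± 294 CPM in BATdKO mice (SD, n = 6). Its log2 fold change between the labels at 8°C was 0.13 (SE 0.40, edgeR adjusted p = 0.980), where that of Bmp8b was -2.25. The 13 brown adipocyte markers, summed, ranged from 2482 to 4011 CPM in cold Cre- mice and from 2779 to 3653 CPM in cold BATdKO mice, so the groups overlapped.

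Reads of Bmp8b could be confused with those of a neighbour or a relative. Its exons share 339 bases with those of Gm17244 on the other strand, ending 16805 bases before the last base of Bmp8b. The level of Gm17244 was not examined. Bmp8b exons also share 133 bases with those of Ppie, a cyclophilin gene on the other strand. This stretch, at chr4:123130422-123130554, ends 1545 bases before the last base of Bmp8b. Ppie, which was looked at for this overlap, was measured at 1.00 to 3.45 CPM in Cre- mice at 8°C, and its log2 fold changes were 0.32 (SE 0.28, edgeR adjusted p = 0.593) for cold in Cre- mice and 0.03 (SE 0.28) for genotype at 8°C. Bmp8a, the nearest relative, was not analysed here. Its transcript is 85.3% identical to that of Bmp8b over 1453 aligned bases, with a longest shared run of 182 bases. In the last 300 bases of the Bmp8b transcript, where a 3′ tag falls, no run of 10 bases is shared with Bmp8a.

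Bmp4, the other BMP ligand measured, showed none of this range. Its lowest, median and highest levels were 4.10, 7.01 and 13.9 CPM in Cre- mice at 30°C and 5.06, 5.62 and 7.03 CPM in Cre- mice at 8°C. In BATdKO mice they were 5.27, 8.31 and 11.3 CPM at 30°C and 5.60, 7.06 and 8.41 CPM at 8°C. All 4 groups overlapped, and the cold Cre- mice lay in the lower part of the range of the warm ones. The order of the means was BATdKO 30°C (8.15 ± 2.05 CPM), Cre- 30°C (7.90 ± 3.38), BATdKO 8°C (7.04 ± 1.23) and Cre- 8°C (5.83 ± 0.798), and each neighbour overlapped the next. The log2 fold change was -0.53 (SE 0.20) for cold in Cre- mice and 0.26 (SE 0.21) for genotype at 8°C. In the comparisons that could be tested it was -0.20 (SE 0.20, edgeR adjusted p = 0.669) for cold in BATdKO mice and -0.07 (SE 0.19, adjusted p = 0.976) for genotype at 30°C. When each library was dropped in turn, the log2 fold change of Bmp4 for cold in Cre- mice ran from -0.62 to -0.31, as a description.

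Bmpr1a (ENSMUSG00000021796), the type I receptor of BMP ligands, lies at chr14:34410734-34503341 on the minus strand. Its medians were 13.2 CPM in Cre- and 14.6 CPM in BATdKO mice at 30°C and 12.9 and 13.2 CPM at 8°C. Single mice ranged from 6.83 CPM (Cre- 30°C, m4, from 5 counts) to 17.9 CPM (BATdKO 8°C, m1, from 41 counts). The means were 14.7 ± 2.40 (BATdKO 30°C), 13.8 ± 2.12 (BATdKO 8°C), 12.9 ± 1.56 (Cre- 8°C) and 12.2 ± 2.70 CPM (Cre- 30°C; SD, n = 6), and neighbours overlapped. As a description, the log2 fold change was -0.01 (SE 0.12) for cold in Cre- mice and 0.07 (SE 0.12) for genotype at 8°C. No change passed the test for cold in BATdKO mice (-0.12, SE 0.12, edgeR adjusted p = 0.692) or for genotype at 30°C (0.17, SE 0.12, adjusted p = 0.684).

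Acvr1c (ENSMUSG00000026834; chr2:58267453-58357895, minus strand), the activin-branch receptor, varied widely within groups. It was measured at 7.70, 18.8 and 27.4 CPM (lowest, median, highest) in Cre- and at 11.9, 22.4 and 24.9 CPM in BATdKO mice at 30°C. At 8°C the levels were 14.5, 24.6 and 29.6 CPM in Cre- and 12.8, 19.7 and 31.8 CPM in BATdKO mice. The spread within each group was as wide as that between groups. The means were 22.7 ± 5.80 (Cre- 8°C), 21.4 ± 7.41 (BATdKO 8°C), 20.6 ± 4.59 (BATdKO 30°C) and 17.9 ± 7.57 CPM (Cre- 30°C), and neighbours overlapped. The log2 fold change was 0.39 (SE 0.25) for cold in Cre- mice and -0.13 (SE 0.25) for genotype at 8°C. For cold in BATdKO mice it was 0.0032 (SE 0.25, edgeR adjusted p = 1.0), with either sign among the alternative fits, and for genotype at 30°C it was 0.26 (SE 0.25, adjusted p = 0.786).

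Nrg4 (ENSMUSG00000032311; chr9:55220222-55326844, minus strand), the secreted ligand of ERBB4, was the most abundant of the 5 in tags, each transcript giving 1 tag whatever its length. Its lowest, median and highest levels were 14.3, 28.2 and 34.2 CPM in Cre- and 23.4, 27.3 and 29.8 CPM in BATdKO mice at 30°C. At 8°C they were 20.1, 31.7 and 39.6 CPM in Cre- and 26.0, 31.0 and 34.9 CPM in BATdKO mice. The groups overlapped, with 3 of 6 cold BATdKO mice above all warm BATdKO mice. The means were 31.3 ± 6.43 (Cre- 8°C), 30.8 ± 3.33 (BATdKO 8°C), 26.7 ± 2.44 (BATdKO 30°C) and 25.8 ± 7.50 CPM (Cre- 30°C). As a description, the log2 fold change was 0.24 (SE 0.15) for cold in Cre- mice and -0.04 (SE 0.15) for genotype at 8°C. For cold in BATdKO mice it was 0.20 (SE 0.15), which did not pass across all genes (edgeR adjusted p = 0.552), while the exact two-sided permutation test of that value alone gave p = 0.0455, 1 of 8 such unadjusted tests (4 genes in 2 comparisons). For genotype at 30°C it was 0.0027 (SE 0.15, adjusted p = 1.0). Its exons share 368 bases with Fbxo22 on the other strand, ending 800 bases before the last base of Nrg4. Fbxo22, looked at for this overlap, rose in cold Cre- mice by 0.49 on the log2 scale (SE 0.12, edgeR adjusted p = 0.00877), and its part in the count of Nrg4 was not tested.

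**Figure D3:**
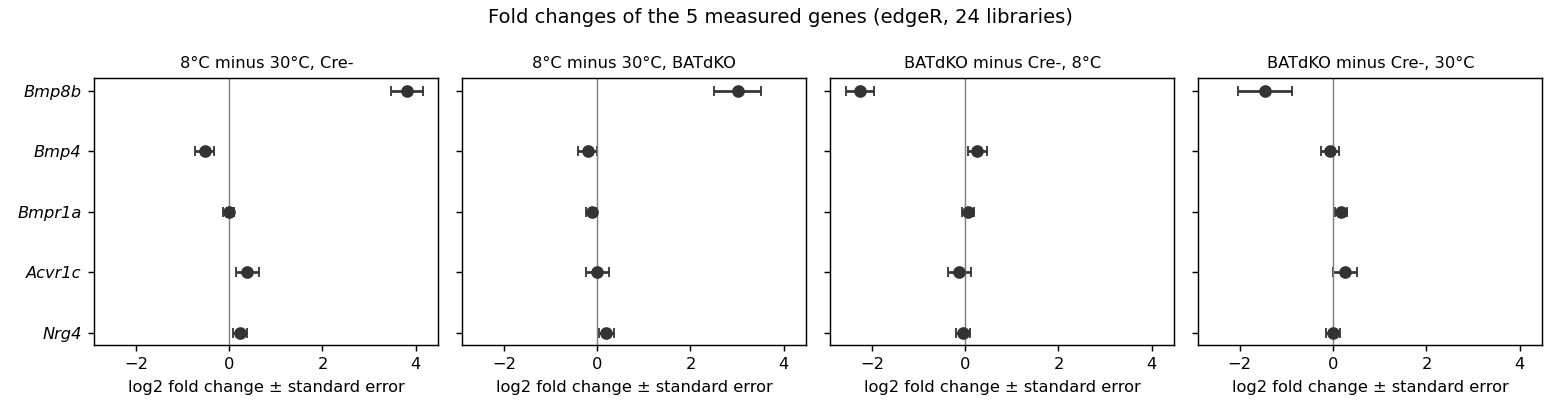
The log2 fold change (point) and its standard error (bar) for Bmp8b, Bmp4, Bmpr1a, Acvr1c and Nrg4 in 4 comparisons, from 1 edgeR fit to 24 libraries. Bmp8b stands at 3.80, 3.01, -2.25 and -1.46, and the other 4 genes lie between -0.53 and 0.39.

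The genes around these 5 in the pathway were taken from lists of BMP and TGF-β ligands, receptors, SMADs with their ubiquitin ligases, BMP target genes and BMP antagonists. Of 73 listed genes 45 were in the table and 41 were tested. For cold in Cre- mice 2 rose and 3 fell, for cold in BATdKO mice 1 rose and 4 fell, and for genotype at 8°C 0 rose and 1 fell. The share of all tested genes past the threshold was 9.15%, 7.07% and 1.82% in these comparisons. None passed for genotype at 30°C by edgeR or DESeq2, beside 0 and 90 of all tested genes. There 9 had an unadjusted p under 0.05, beside 1303 of all 12485 tested genes. Without both m6 libraries 5 were called, beside 500 of 12500. For the interaction none passed with edgeR, beside 12 of all tested genes, and 6 had an unadjusted p under 0.05, beside 1005. DESeq2 called 1 for it, beside 51 of all. With 1 library left out, the number called ran from 4 to 7 for cold in Cre- mice and from 0 to 1 for genotype at 8°C. For cold in BATdKO mice it ran from 2 (without BATdKO m4 at 8°C) to 7. Over all tested genes these fits called 791 to 1343, 138 to 276 and 574 to 1069. Without both m6 libraries, 8 were called for cold in Cre- mice, 7 for cold in BATdKO mice and 1 for genotype at 8°C. That fit called 1651, 766 and 324 of all 12500 tested genes. The median log2 fold change of the lists was -0.11, -0.01 and 0.02 in the first 3 comparisons, beside -0.02, -0.0026 and -1e-04 over all genes.

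Id1, the inhibitor of differentiation that BMP signals induce, was the only one of 8 tested target genes to pass. It rose in the cold in Cre- mice, from 6.30 ± 1.68 to 10.5 ± 2.77 CPM (log2 fold change 0.77, SE 0.18, edgeR adjusted p = 0.00908), and in BATdKO mice, from 5.43 ± 1.26 to 8.88 ± 1.48 CPM (0.69, SE 0.19, adjusted p = 0.0314). Its lowest, median and highest levels at 8°C were 7.53, 10.4 and 15.4 CPM in Cre- and 6.59, 9.01 and 10.6 CPM in BATdKO mice, and these overlapped. Between the labels at 8°C the log2 fold change was -0.23 (SE 0.18, adjusted p = 0.785), where that of Bmp8b was -2.25. Both calls of Id1 held in 24 of 24 fits that left out a library.

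Among the receptors and coreceptors, Eng, an endothelial coreceptor, rose in cold Cre- mice (0.46, SE 0.13, edgeR adjusted p = 0.0402). Tgfbr3, the coreceptor betaglycan (-0.56, SE 0.15, adjusted p = 0.0236), and Rgmb, a BMP coreceptor (-0.91, SE 0.28, adjusted p = 0.0491), fell there. The call of Rgmb was lost without m1 or m3 of Cre- at 30°C or m4 of Cre- at 8°C (adjusted p up to 0.151). Rgma, of the same coreceptor family, fell in cold BATdKO mice (-0.67, SE 0.22, adjusted p = 0.0809), a call that held in 16 of 24 fits without 1 library. The 8 endothelial markers, summed, reached 222 to 292 CPM in cold and 199 to 249 CPM in warm Cre- mice, and their part in the change of Eng was not tested.

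Smad2, the SMAD of the activin and TGF-β branch, was the only gene of these lists past the threshold between the labels at 8°C, and it was lower under BATdKO. Its lowest, median and highest levels were 3.49, 6.72 and 8.02 CPM in BATdKO and 7.97, 9.02 and 9.59 CPM in Cre- mice (log2 fold change -0.44, SE 0.13, edgeR adjusted p = 0.0948). That call held in 8 of 24 fits without 1 library and was lost with DESeq2 (adjusted p = 0.155). In cold BATdKO mice Smad2 (-0.40, SE 0.12, adjusted p = 0.0712) and Smurf1, a ubiquitin ligase of BMP SMADs (-0.43, SE 0.14, adjusted p = 0.0850), fell, both no longer past the threshold with DESeq2, and held in 18 and 15 of 24 fits without 1 library. The difference between the cold effects on Smad2 was -0.74 (SE 0.18), which did not pass with edgeR (adjusted p = 0.123) and did with DESeq2. Htra1, a secreted protease that binds TGF-β family ligands, fell in the cold under both labels (-0.91, SE 0.21, adjusted p = 0.00673 in Cre- and -0.88, SE 0.23, adjusted p = 0.0261 in BATdKO mice). None of the 7 tested ligands passed in any comparison, by edgeR or DESeq2. Up to 2 had an unadjusted p under 0.05, for cold in BATdKO mice and for genotype at 30°C. Of all 12485 tested genes, 2145 and 1303 had such a p there.

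**Figure D4:**
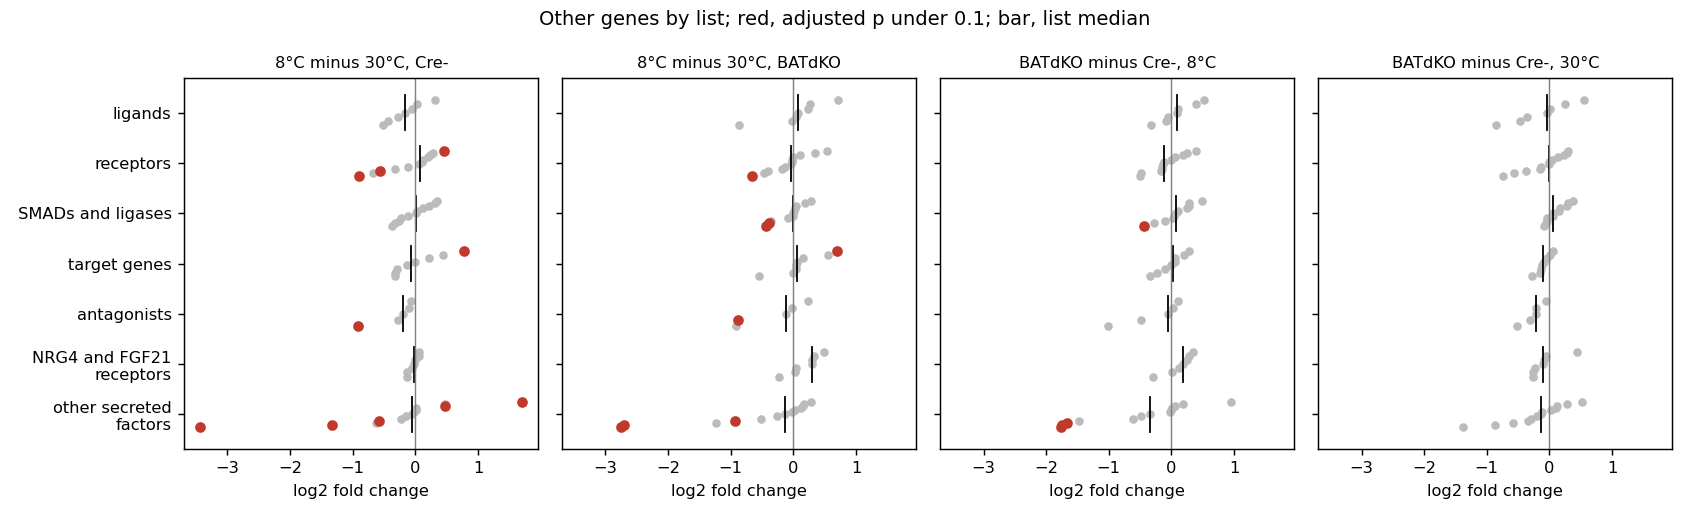
The log2 fold change of each tested gene (points) by list in 4 comparisons, red where the adjusted p was under 0.1, with the median of the list as a bar. The 41 BMP and TGF-β genes lie between -1.02 and 0.77, and the widest changes are in the other secreted factors, from -3.43 to 1.71.

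Receptors for NRG4 and FGF21 were in the table for 7 of 9 listed genes, and 0 passed in any comparison by edgeR or DESeq2. Erbb4, which encodes the receptor named above for NRG4, and Erbb2 were not analysed here. For cold in BATdKO mice, the comparison with the most, 3 had an unadjusted p under 0.05, beside 2145 of all 12485 tested genes. The 3 were Erbb3 (log2 fold change 0.33), Fgfr2 (0.49) and Fgfr3 (0.30), and nothing is read from this. Over all 7 tested genes the log2 fold changes ran from -0.235 to 0.494.

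Other factors that brown fat is described to secrete gave 13 tested genes of 18 listed, of which 2 rose and 3 fell in cold Cre- mice, 3 fell in cold BATdKO mice and 3 were lower under the BATdKO label at 8°C, beside 9.15%, 7.07% and 1.82% of all tested genes. S100b, a calcium-binding protein that promotes sympathetic innervation of fat, had the smallest p of this list for cold in Cre- mice and for genotype at 8°C. Its lowest, median and highest levels were 26.7, 34.5 and 52.9 CPM in Cre- mice at 8°C and 8.63, 9.23 and 15.7 CPM in BATdKO mice at 8°C. At 30°C they were 5.14, 11.2 and 18.1 CPM in Cre- and 4.61, 7.21 and 19.98 CPM in BATdKO mice. Cold Cre- mice lay above all other mice. S100b rose in the cold in Cre- mice (1.71, SE 0.29, edgeR adjusted p = 0.000313) and was lower under the BATdKO label at 8°C (-1.77, SE 0.30, adjusted p = 0.00109), both in 24 of 24 fits without 1 library. In BATdKO mice its change in the cold was 0.28 (SE 0.32, adjusted p = 0.724), while that of Bmp8b was 3.01. The difference between the cold effects on S100b was -1.43 (SE 0.43) and did not pass (adjusted p = 0.313). S100b is also a marker of Schwann cells, of which Mbp was the only other in the table, and a Schwann cell part in its level was not tested.

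Cfd, the adipokine adipsin, was lower under the BATdKO label at 8°C (58.6 ± 28.0 against 184 ± 83.1 CPM; log2 fold change -1.67, SE 0.45, edgeR adjusted p = 0.0713). So was Ptgds, a prostaglandin D synthase (3.08 ± 0.893 against 10.6 ± 3.72 CPM; -1.74, SE 0.48, adjusted p = 0.0786). These calls held in 15 and 13 of 24 fits without 1 library and were lost with robust dispersion estimates (adjusted p = 0.166 for each). Between the labels at 30°C the log2 fold change of Ptgds was -1.38 (SE 0.44, edgeR adjusted p = 0.240). That of Cfd was -0.30 there (SE 0.43, adjusted p = 0.889). In the cold, Cfd fell in BATdKO mice (-2.71, SE 0.47, adjusted p = 0.000522) and in Cre- mice (-1.33, SE 0.44, adjusted p = 0.0709). Lep, the hormone leptin, fell in Cre- mice (-3.43, SE 0.66, adjusted p = 0.00125) and in BATdKO mice (-2.75, SE 0.60, adjusted p = 0.00608). Adipoq, the hormone adiponectin, fell in both as well (-0.58, SE 0.18, adjusted p = 0.0583 and -0.93, SE 0.18, adjusted p = 0.00233), and Nampt, an enzyme of NAD synthesis that is also secreted, rose in cold Cre- mice (0.47, SE 0.14, adjusted p = 0.0370). In Cre- mice the call of Adipoq held in 20 of 24 fits without 1 library, with a log2 fold change of -0.34 (adjusted p = 0.209) without m1 at 30°C and losses also without m2, m4 or m5 at 8°C, and it was lost in the fit of only the groups compared (adjusted p = 0.127). That of Nampt held in 21 of 24 and was lost without m3 or m5 at 30°C or m4 at 8°C (adjusted p up to 0.125).

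Of all tested genes, those whose pattern was nearest to that of Bmp8b were found by the root mean square difference between log2 CPM values, each centred on the mean of its gene, over the 24 libraries. This is a description, since Bmp8b was chosen for its pattern. Sorl1, which encodes a sorting receptor, was nearest with a difference of 0.863, followed by Gm15241 (0.878), an antisense gene, Gmpr (0.909), a GMP reductase, Acot11 (0.918), an acyl-CoA thioesterase, and Fbp2 (0.961), a fructose-bisphosphatase. They were among the nearest 5 in 24, 24, 23, 24 and 21 of the 24 repeats that each left out a library. All 5 had their highest mean in Cre- mice at 8°C, with 37.8 ± 10.5 CPM of Sorl1 against 14.2 ± 4.13 CPM in BATdKO mice at 8°C. The log2 fold change between the labels at 8°C was -0.76 for Acot11 (54.9 ± 16.5 CPM in Cre- and 32.1 ± 10.1 CPM in BATdKO mice) and -1.74 for Fbp2 (14.7 ± 3.92 and 4.20 ± 1.97 CPM, SD, n = 6).

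**Figure D5:**
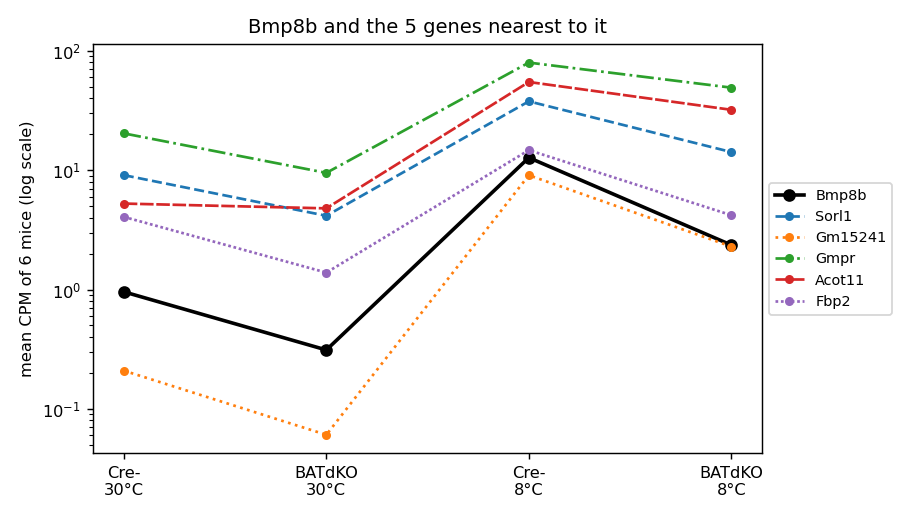
Mean CPM over 6 mice (log axis) in each of the 4 groups for Bmp8b (thick line) and the 5 genes nearest to it, with lines joining the groups only to guide the eye. All 6 are highest in Cre- mice at 8°C, where Bmp8b is at 12.8 CPM, and lowest in BATdKO mice at 30°C, where it is at 0.312 CPM.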

How the data were processed

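RNA from the BAT of 24 mice was made into 3′ tag libraries (QuantSeq FWD). The authors trimmed the reads, aligned them to GRCm38 with STAR and deposited the counts of each gene unnormalized. Their annotation release and strand setting are not given in the sources used here. The submitters' processing notes also name DESeq2. Columns were matched to samples by the names in the labels.

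Counts were analysed with edgeR 4.0.16 and limma 3.58.1 in R 4.3.3 (TMM, filterByExpr with a minimum count of 10; 12485 genes kept, 130 removed). A quasi-likelihood model with 4 group means was fitted to all 24 libraries, with Benjamini-Hochberg adjustment over all tested genes and the study's threshold of 0.1. The study describes a removal of outliers, and all 24 libraries were kept here. CPM uses TMM library sizes, and log2 CPM a prior count of 2. Alternatives were DESeq2 1.42.0, RLE factors, no filter, robust dispersion, only the groups compared and leaving out each library, while leaving out both m6 libraries at 30°C was added after seeing the data. On simulated data for cold in BATdKO mice with a log2 change of 1, edgeR called 196 and DESeq2 197 of 200 changed genes, with 31 and 36 unchanged genes called (12461 and 12615 genes). The changed genes were drawn only from those above a minimum mean level, and the spread of each gene followed the trend for its level. Detection of genes with lower levels or a wider spread was therefore not measured.

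The genes and lists were chosen with earlier results of these data known. Tests of Bmp8b had been planned for cold in BATdKO mice and genotype at 30°C, and are not reported because its choice used all 4 groups. Besides these, both deleted genes, up to 4 genes with the smallest p per list and comparison among those past the threshold, and the 5 genes nearest to Bmp8b are named. Positions are from GENCODE (GRCm38), promoters from RefSeq.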

Additional observations from a re-analysis of the deposited data

Results flagged for a closer look

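A single mouse stood far from the other 5 of its group in 2 of the 20 groups of values examined (5 genes in 4 groups), where chance gives about 1 in 20. Both concern Bmpr1a. In Cre- mice at 30°C, m4 had 6.83 CPM, and its gap to the next mouse was 0.78 of the range of the group. This library had the lowest total, 699703 counts, and its value rests on 5 counts. In BATdKO mice at 8°C, m1 had 17.9 CPM, from 41 counts, with a gap of 0.695 of the range.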

How the results depend on the processing

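Leaving out each library in turn gave 791 to 1343 genes called for cold in Cre- mice, 138 to 276 for genotype at 8°C, 574 to 1069 for cold in BATdKO mice, 7 to 37 for the interaction and 0 to 369 for genotype at 30°C, the highest without Cre- m6 at 30°C. Of the 5 genes it gave 1 to 2 for cold in Cre- mice, beside the 791 to 1343 of all tested genes. Bmp8b was past the threshold in 24 of 24 of these fits and Bmp4 in 4 of 24. Since Bmp8b was chosen by its higher count in the cold, this number is a description and not a test. In the same fits the log2 fold change of Bmp8b for genotype at 30°C ran from -1.85 to -0.87, and either sign occurred for Acvr1c with cold in BATdKO mice (-0.12 to 0.12) and, for genotype at 30°C, for Bmp4 (-0.19 to 0.16) and Nrg4 (-0.14 to 0.11). Acvr1c for cold in BATdKO mice was -0.0053 with no filter and -0.0104 with only the groups compared. That last fit called 477 genes for genotype at 8°C, and had no value of Bmp8b for cold in BATdKO mice, since the filter removed it. Without both m6 libraries at 30°C, 500 of 12500 tested genes were called for genotype at 30°C and 44 for the interaction. For genotype at 30°C the log2 fold change of Bmp8b was then -2.10, given as a description. Those of the other measured genes were 0.12 (Nrg4), -0.16 (Bmp4), 0.12 (Bmpr1a) and 0.21 (Acvr1c), and none of these was called. DESeq2 called 90 genes for genotype at 30°C and 51 for the interaction, and robust dispersion estimates 21 for the interaction. Unless a value or the construction of the fit shows it, the cause was not tested. Depth limits Bmp8b at 30°C, where 7 of 12 libraries held 3 counts or fewer.

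No paired analysis was possible because the mouse numbers in the labels are not shared between the groups and pair no mice.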
